A study of Mus musculus with 32 samples.

Results

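Aminoacyl-tRNA synthetases are the enzymes that load each tRNA with its amino acid, and mouse cells carry separate nuclear genes for the cytosol and for mitochondria. The genes described here were chosen by symbol from the 20234 genes of the count table: 20 that encode cytosolic synthetases, 16 that encode mitochondrial ones (symbols ending in 2) and 3 scaffold proteins of the cytosolic multi-synthetase complex, 39 genes in all. The rule itself uses no measured value, but it was set with earlier results of these data known. Each of the 39 passed the filter on low counts in every fit, so the counts below cover all members.

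RNA was sequenced from mouse embryonic fibroblasts, connective tissue cells grown from embryos and kept in culture, in 4 conditions with 4 replicates each. The control received thapsigargin for 0 h, and the other conditions thapsigargin for 1 h, for 16 h, or for 16 h with a PERK inhibitor added for the final 4 h. By inhibiting SERCA, which pumps calcium into the endoplasmic reticulum (ER), thapsigargin drains the ER calcium store and so causes ER stress. PERK senses that stress in the ER membrane and phosphorylates eIF2, a translation initiation factor. Cytosolic RNA and polysome RNA were sequenced from each of the 16 samples, the latter from mRNAs with more than 4 ribosomes on a sucrose gradient, which makes 32 libraries. The sources used here do not give the cells' genotype, the doses, the inhibitor's name or any solvent control. The labels number the replicates without calling them separate cultures, so the p-values reflect only how far these samples varied, possibly for technical reasons.

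In the cytosol, the enzymes feed the ribosomes that translate nuclear mRNAs, and several of them sit with Aimp1, Aimp2 and Eef1e1 in one large complex. In mitochondria, a second set charges the tRNAs encoded by the mitochondrial genome, whose products are subunits of the respiratory chain. Gars and Kars cross this border, since each encodes the cytosolic and the mitochondrial enzyme of its amino acid. Eprs joins the cytosolic glutamate and proline enzymes in a single protein. Mitochondria make glutamine-tRNA without a glutaminyl enzyme of their own, by amidation of charged glutamate. Phosphorylated eIF2 lowers initiation in general and raises translation of Atf4, a transcription factor that binds C/EBP-ATF response elements, and cytosolic synthetase genes are among its known targets.

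Libraries held 19317276 to 41776027 counts. For cell type markers, CPM are counts relative to the library's total counts, and all later CPM are relative to TMM-scaled library size. The labelled cell type matched its markers: 9 of 10 fibroblast genes were above 1 CPM in every condition, and the exception was Dcn. Their summed level in cytosolic RNA was 9030 to 12800 CPM in control libraries, 19800 to 24300 at 1 h, 4260 to 5230 at 16 h and 4250 to 5020 with the inhibitor, and the part of this shift in the results below was not tested. Summed markers of macrophages, endothelial and epithelial cells reached at most 5.75, 2.02 and 0.69 CPM. In bulk RNA, fewer cells of a kind and less RNA per cell cannot be told apart, and each level is a share of its own library, so that polysome loss affecting every mRNA alike would not show. The comparisons share libraries, and their values are set side by side without a test between them.

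In control cells the cytosolic genes were expressed at higher levels than the mitochondrial ones. Per kb of annotated transcript, the 20 cytosolic genes ran from 20.5 to 222.8 CPM per kb in cytosolic RNA with a median of 50.6, and the 16 mitochondrial genes from 2.61 to 94.0 with a median of 6.76. The highest cytosolic levels belonged to Gars (glycine) at 223 and Kars (lysine) at 184 CPM per kb, the genes that serve both compartments, followed by Nars (asparagine, 149) and Sars (serine, 134.5). Wars (tryptophan) was the lowest of the cytosolic set at 20.5. Lars2 (mitochondrial leucine) stood apart from its set: it reached 94.0 CPM per kb, above 16 of the cytosolic genes, while the next mitochondrial gene, Yars2 (tyrosine), was at 28.5. Only Lars2, Yars2, Tars2 (threonine) and Rars2 (arginine) lay above the lowest cytosolic gene. Sars2 and Aars2 (alanine) had control means of 4.87 ± 1.52 and 8.93 ± 2.84 CPM (SD, n = 4), so their changes rest on the fewest counts of the set.

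Promoter windows from RefSeq (build GRCm38.p6, 250 bases before to 50 after the annotated start) were found for 30 of the 39 genes: 13 cytosolic, 14 mitochondrial and 3 scaffold genes. No window was matched for Cars, Hars, Lars, Nars, Rars, Vars, Wars, Hars2 and Pars2. The C/EBP-ATF response element, searched as TGATGNAA on both strands, was present in 5 of 13 cytosolic windows (38.5%, Aars, Gars, Iars, Tars and Yars), in 0 of 14 mitochondrial and in 0 of 3 scaffold windows, against 4.51% of 27025 genes. The copies upstream of the start of Gars and Tars are shown as examples of the matched letters in their context. Each is printed along the gene's strand with the match in capitals, on the strand opposite to the gene, and lies before the start, at chr6:55037960-55037989 (+) for Gars and chr15:11399659-11399684 (-) for Tars. The copies of Iars and Yars lie just after the start.
Gars: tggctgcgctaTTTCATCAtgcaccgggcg
Tars: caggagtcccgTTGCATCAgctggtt

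A second motif, that of nuclear respiratory factor 1 (NRF1), a regulator of nuclear genes for mitochondrial proteins, was searched as GCGCA, any base and GCGC on both strands. It was present in 3 of 13 cytosolic windows (23.1%, Farsb, Kars and Tars), in 2 of 14 mitochondrial windows (14.3%, Iars2 and Mars2) and in Eef1e1 of the 3 scaffold genes, against 5.19% of 27025 genes. No match of one motif overlapped a match of the other. The 3 copies upstream of a start are shown with the match in capitals, to set beside the response elements: they start 49 (Kars), 169 (Tars) and 84 (Eef1e1) bases before it, at chr8:112011384-112011413 (-), chr15:11399808-11399837 (-) and chr13:38659093-38659122 (-). A match of letters is a description and not a bound site.
Kars: gcccagcactGCGCCTGCGCagcgagagtc
Tars: ggggaagagtGCGCTTGCGCgcctcactac
Eef1e1: cgcccctttcGCGCAGGCGCgcttgccgtc

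The share of all counts taken by the cytosolic set rose from control to 1 h and to 16 h and was lowest with the PERK inhibitor, and the share of the mitochondrial set spanned a narrower range. The 20 cytosolic genes together took 0.433% ± 0.00338 of the counts in control cytosolic RNA (SD, n = 4), 0.677% ± 0.00690 at 1 h, 0.857% ± 0.00988 at 16 h and 0.359% ± 0.0102 with the PERK inhibitor, with no overlap between the libraries of any 2 conditions. The 16 mitochondrial genes took 0.0792% ± 0.00411, 0.0774% ± 0.00332, 0.102% ± 0.00271 and 0.0817% ± 0.00142 in the same order: the 16 h libraries were above all others, and control overlapped with 1 h and with the inhibitor. Without Lars2, the most abundant of them, they took 0.0421% ± 0.000348, 0.0448% ± 0.000757, 0.0542% ± 0.00106 and 0.0354% ± 0.000952 in the same order. In polysome RNA the share of the cytosolic set went from 0.594% ± 0.0163 to 1.34% ± 0.0223, 1.79% ± 0.00785 and 0.518% ± 0.00721, that of the mitochondrial set from 0.0759% ± 0.00271 to 0.0766% ± 0.00175, 0.0860% ± 0.00280 and 0.0613% ± 0.00572, and that of the set without Lars2 from 0.0544% ± 0.000345 to 0.0561% ± 0.000705, 0.0666% ± 0.000541 and 0.0434% ± 0.000614.

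**Figure D1:**
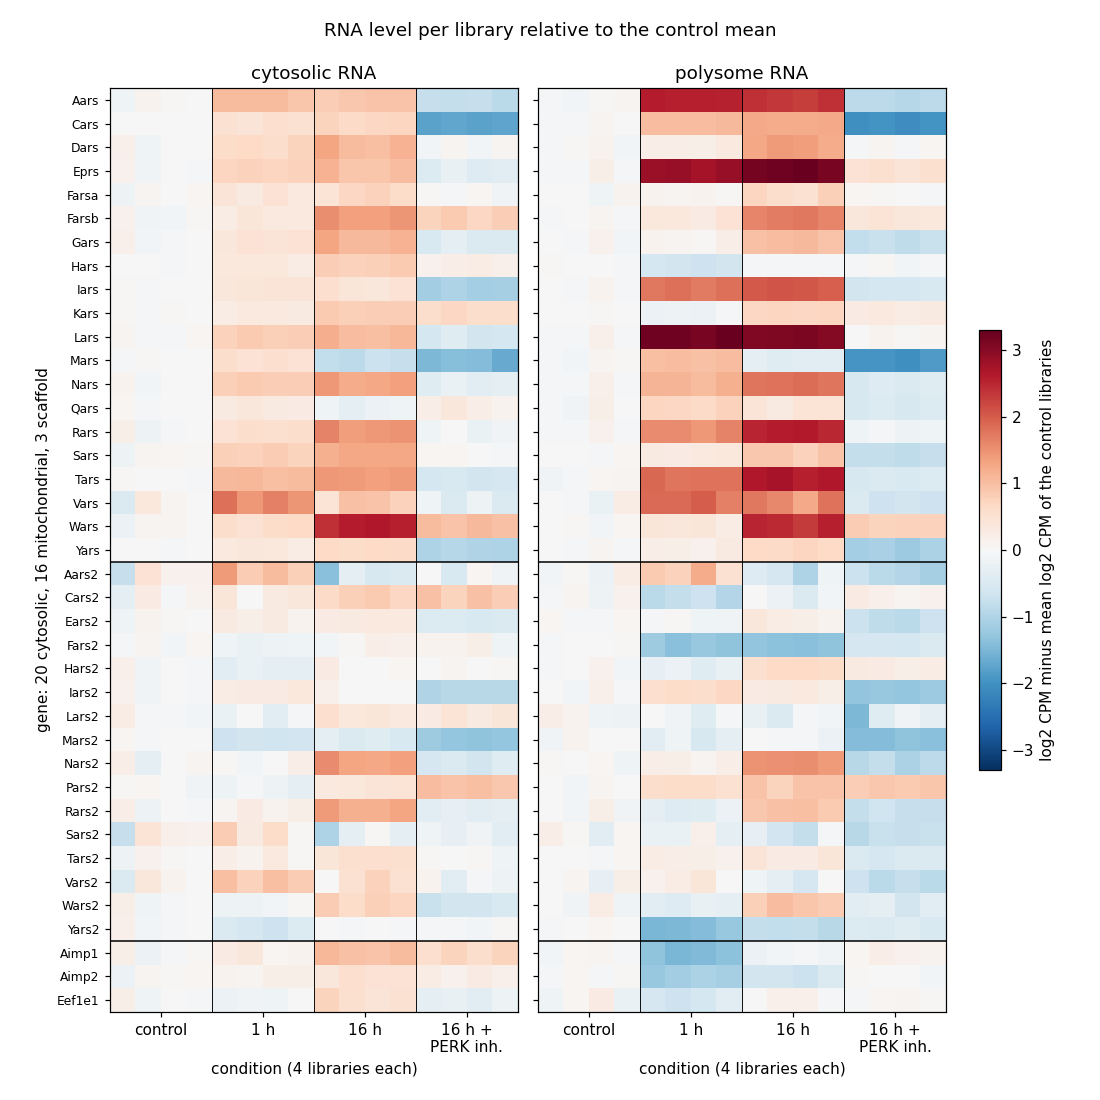
Level of each of the 39 genes in every library, as log2 CPM minus the mean log2 CPM of the control libraries, with cytosolic RNA on the left and polysome RNA on the right; rows are genes and each condition holds its 4 libraries in replicate order. Cytosolic synthetases (upper block) are mostly red at 1 h and 16 h, most of all in polysome RNA, where Eprs reaches a log2 change of 3.19 at 16 h and Lars 3.20 at 1 h, while the mitochondrial block holds both colours.

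After 1 h of thapsigargin, the cytosolic RNA of all 20 cytosolic synthetase genes was called higher than in control by edgeR's quasi-likelihood test (Benjamini-Hochberg adjusted p under 0.05), where 28.1% of 12366 genes tested were called higher. Their median log2 change was 0.53, against 0.003 over all genes. Of the 16 mitochondrial genes, 5 rose, 4 fell and 7 were not called, with a median of 0.10, where 28.1% of all genes were called lower. Among the 3 scaffold genes Aimp1 was called higher and Aimp2 and Eef1e1 were not called.

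Vars, the cytosolic valine enzyme, rose most. Its control libraries held 96.1, 171, 142.5 and 135.6 CPM and its 1 h libraries 467, 362, 420.4 and 365 CPM, a 2.96-fold rise (log2 change 1.57 ± 0.16 SE, adjusted p = 7.79e-07). Tars, the threonine enzyme, went from 199, 192, 196 and 188 to 409, 411, 385 and 403 CPM, 2.07-fold higher (log2 change 1.05 ± 0.04 SE, adjusted p = 2.87e-12). For both genes every stressed library lay above every control library, and the control spread was wider for Vars, whose first replicate was the lowest. The smallest rises of the set were those of Kars and Qars, the glutamine enzyme. Kars was at 413, 387, 411 and 404 CPM in control and 479, 501, 503 and 499.9 at 1 h (log2 change 0.30 ± 0.04 SE, adjusted p = 7.05e-06). Qars moved from 135, 126, 129 and 127.7 to 158, 166, 160.0 and 156 CPM (log2 change 0.31 ± 0.05 SE, adjusted p = 1.08e-04). Small as they were, these changes separated the 1 h from the control libraries without overlap.

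Eprs, which joins the cytosolic glutamate and proline enzymes, and Gars, which serves both compartments, followed the cytosolic set at 1 h. Eprs libraries held 365, 308, 330.0 and 326 CPM in control and 538, 559, 537 and 557 at 1 h (log2 change 0.72 ± 0.06 SE, adjusted p = 3.45e-08), and Gars 593, 494, 514 and 520.1 and 685, 736, 713 and 736 (log2 change 0.44 ± 0.06 SE, adjusted p = 1.68e-05). No control library of either gene reached a 1 h library. Hars, the cytosolic histidine enzyme, rose from 87.2, 85.7, 83.3 and 87.2 to 108.7, 108, 109.6 and 102 CPM (log2 change 0.32 ± 0.04 SE, adjusted p = 3.96e-06). Mars, the methionine enzyme, rose from 138.5, 148.2, 147 and 147 to 217, 202, 213 and 201 (log2 change 0.52 ± 0.05 SE, adjusted p = 2.97e-07), and Yars, the tyrosine enzyme, from 136.5, 136.4, 131.5 and 137.1 to 169.9, 176, 172 and 161 (log2 change 0.33 ± 0.04 SE, adjusted p = 1.42e-06). The mitochondrial partner of each of these 4 amino acids, proline for Eprs included, was called in the opposite direction.

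Among these partners Mars2 fell most, from 31.6, 28.7, 30.1 and 30.2 to 18.8, 19.8, 19.0 and 19.45 CPM (log2 change -0.65 ± 0.06 SE, adjusted p = 3.72e-08), and Yars2 fell from 50.6, 41.9, 42.8 and 44.5 to 32.1, 30.6, 28.0 and 32.7 (log2 change -0.54 ± 0.06 SE, adjusted p = 1.16e-06). In both cases the 2 groups did not overlap. Hars2 fell from 33.5, 27.9, 30.3 and 28.9 to 23.6, 26.0, 24.1 and 24.3 CPM (log2 change -0.30 ± 0.07 SE, adjusted p = 0.00123), again without overlap. Pars2, the mitochondrial proline enzyme, was at 11.03, 11.1, 10.7 and 9.84 CPM in control and 9.46, 10.1, 9.496 and 8.64 at 1 h (log2 change -0.17 ± 0.07 SE, adjusted p = 0.0337), with overlapping groups, and its call was lost without the low-count filter and without any of 6 of the 8 replicates left out in turn.

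Mitochondrial genes for valine and alanine rose instead. Aars2 was at 5.02, 11.8, 9.48 and 9.34 CPM in control and 22.6, 15.2, 17.5 and 14.6 at 1 h, 1.95-fold higher (log2 change 0.97 ± 0.24 SE, adjusted p = 0.00309). Vars2 went from 20.3, 36.2, 30.6 and 28.1 to 55.8, 48.0, 56.5 and 49.98 CPM (log2 change 0.87 ± 0.17 SE, adjusted p = 4.18e-04). The first control replicate was the lowest for both genes, as it was for Vars, and no control library reached a 1 h library. Iars2 (isoleucine), Ears2 (glutamate) and Tars2 were the other 3 called higher, with log2 changes of 0.29, 0.22 and 0.18. The Tars2 call was lost with DESeq2's size factors and without 5 of 8 replicates left out in turn.

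At 16 h, 18 of the 20 cytosolic genes were higher than in control and 2, Mars and Qars, were lower, where 37.9% and 39.4% of all genes were called higher and lower. The median log2 change of the cytosolic set was 0.95 against -0.01 over all genes, and that of the mitochondrial set 0.34, with 9 genes higher, 2 lower and 5 not called. All 3 scaffold genes rose.

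Wars, the tryptophan enzyme, changed most. It was at 32.8, 39.8, 39.5 and 37.7 CPM in control, 55.9, 51.8, 57.2 and 58.6 at 1 h and 198, 223, 233 and 222 at 16 h, so that the last were 5.85-fold above control (log2 change 2.55 ± 0.07 SE, adjusted p = 1.59e-15). The rise at 1 h was small beside that at 16 h. Rars, the arginine enzyme, went from 224, 176, 189.6 and 199 to 606, 513, 533 and 547 CPM (log2 change 1.48 ± 0.07 SE, adjusted p = 5.24e-12). Gars libraries reached 1294, 1106, 1116 and 1162 CPM at 16 h (log2 change 1.14 ± 0.06 SE, adjusted p = 3.59e-11), Eprs 733, 624, 623 and 669 (log2 change 0.99 ± 0.06 SE, adjusted p = 1.62e-10) and Kars 733, 693, 712 and 713 (log2 change 0.82 ± 0.04 SE, adjusted p = 5.33e-12). None of these genes had a 16 h library within the range of its control libraries, and the gene order of 1 h was not kept: Vars, highest then, was at a log2 change of 0.76, and Wars had been at 0.58.

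Mars and Qars were the exceptions. Mars was at 83.0, 79.9, 89.4 and 85.7 CPM at 16 h, below every control library and every 1 h library (log2 change -0.78 ± 0.05 SE, adjusted p = 5.90e-10, against control). Qars was at 117.6, 103.6, 113.1 and 116.2 CPM, also below its control range (log2 change -0.20 ± 0.05 SE, adjusted p = 0.0026). Mars (chr10:127296221-127311786, GRCm38) overlaps Ddit3, the gene of the stress factor CHOP, on the opposite strand. The sources used here do not give the counting's strand setting. Searched on both strands, the annotated transcripts of the 2 genes shared fewer than 20 words of 50 bases. Whether reads of Ddit3 were counted for Mars was not tested.

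Of the mitochondrial set, Nars2 (asparagine) and Rars2 rose most. Nars2 went from 11.9, 8.15, 10.4 and 10.98 CPM in control to 30.2, 25.2, 24.9 and 26.2 at 16 h, 2.57-fold higher (log2 change 1.36 ± 0.10 SE, adjusted p = 2.30e-09). At 1 h it had been at 10.5, 9.61, 10.3 and 12.004 and was not called. Rars2 was also not called at 1 h, with 44.7, 34.2, 38.4 and 37.5 CPM in control, 41.3, 46.3, 41.7 and 44.3 at 1 h and 102.7, 87.0, 86.8 and 95.1 at 16 h (log2 change 1.26 ± 0.08 SE, adjusted p = 8.31e-11). Both genes had 16 h libraries well clear of the other groups, and their changes were close to those of Nars and Rars, at 1.32 and 1.48.

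Mars2 and Aars2 were lower at 16 h than in control. Mars2 libraries held 24.2, 21.7, 22.9 and 21.4 CPM (log2 change -0.42 ± 0.05 SE, adjusted p = 2.25e-06), without overlap with control. Aars2 libraries held 3.29, 6.89, 5.96 and 6.16 CPM (log2 change -0.68 ± 0.25 SE, adjusted p = 0.0231), and 3 of them lay within the control range. Leaving out control replicate 2 gave -0.51 (adjusted p = 0.0863) and leaving out 16 h replicate 1 gave -0.49 (adjusted p = 0.0705), which ended the Aars2 call and left 1 mitochondrial gene called lower. Aars, its cytosolic partner, rose from 430.2, 514, 486 and 476 to 842, 884, 919 and 917 CPM (log2 change 0.90 ± 0.05 SE, adjusted p = 1.11e-10) and was the cytosolic member of the one pair called in opposite directions at 16 h.

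**Figure D2:**
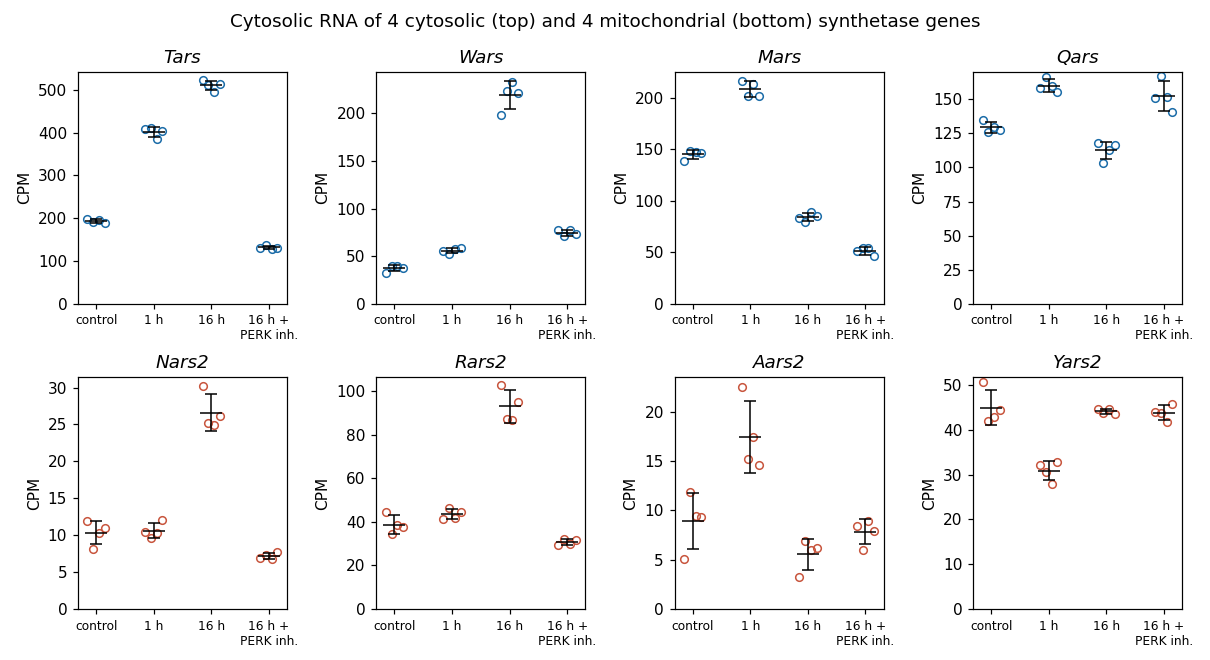
Cytosolic RNA in CPM for 4 cytosolic (Tars, Wars, Mars, Qars) and 4 mitochondrial (Nars2, Rars2, Aars2, Yars2) synthetase genes. Circles are the 4 libraries of each condition in replicate order, and bars give the mean and SD. Tars, Wars, Nars2 and Rars2 are highest at 16 h and fall with the inhibitor, Mars falls below control at 16 h, Aars2 is highest at 1 h and Yars2 lowest at 1 h.

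Between 1 h and 16 h, 15 of 20 cytosolic genes rose further, 3 fell and 2 were not called, and 11 of 16 mitochondrial genes rose, 4 fell and 1 was not called, where 37.7% of all genes were called higher and 37.7% lower. The medians were 0.33 and 0.36, against 0.01 over all genes. All 3 scaffold genes rose. Wars (log2 change 1.97 ± 0.07 SE, adjusted p = 4.41e-14) and Farsb, the beta subunit of the cytosolic phenylalanine enzyme, rose most. Farsb was at 97.7, 81.2, 83.1 and 90.4 CPM in control, 103.99, 115.01, 108.9 and 111 at 1 h and 256, 225, 226 and 241 at 16 h (log2 change 1.11 ± 0.06 SE, adjusted p = 5.60e-11), so most of its rise came after the first hour. Farsa, the alpha subunit, changed by 0.24 on the log2 scale, with overlapping groups.

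Mars (log2 change -1.30 ± 0.05 SE, adjusted p = 8.04e-13), Vars and Qars (log2 change -0.51 ± 0.05 SE, adjusted p = 1.68e-07) were the 3 cytosolic genes that fell. Vars was at 181, 260.0, 256 and 226 CPM at 16 h, below all 1 h libraries (log2 change -0.81 ± 0.16 SE, adjusted p = 2.75e-04). The mitochondrial genes for the same amino acids did not all follow: Mars2 rose (log2 change 0.23 ± 0.06 SE, adjusted p = 0.00158) and Vars2 fell (log2 change -0.43 ± 0.17 SE, adjusted p = 0.0276). Without 1 h replicate 1, 1 h replicate 3 or 16 h replicate 1 the Vars2 call was lost, at log2 changes of -0.40, -0.40 and -0.30. Nars2 and Rars2 had the largest mitochondrial rises, 1.33 and 1.10.

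Aars2 fell most, by 1.65 on the log2 scale (adjusted p = 2.18e-05), with a mean above control at 1 h and below it at 16 h. Sars2, the mitochondrial serine enzyme, was at 2.74, 6.34, 5.21 and 5.18 CPM in control, 8.29, 5.68, 7.07 and 4.76 at 1 h and 2.32, 3.80, 4.75 and 3.72 at 16 h. The 16 h libraries were the lower of the last 2 groups, with 1 of them just under the lowest 1 h library (log2 change -0.83 ± 0.24 SE, adjusted p = 0.00453). Its cytosolic partner Sars went from 221, 265, 261 and 256 in control to 432, 421, 444 and 419 and 568, 604, 608 and 606 CPM and rose between the 2 times (log2 change 0.48 ± 0.05 SE, adjusted p = 2.63e-07).

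The PERK inhibitor, present for the last 4 of 16 h, lowered the cytosolic RNA of 19 of 20 cytosolic synthetase genes against 16 h without it, where 32.5% of all genes were called lower, and raised that of 1, Qars, where 42.2% were called higher. The median log2 change was -1.46, against 0.10 over all genes. Of the mitochondrial genes 8 fell, 1 (Pars2) rose and 7 were not called, with a median of -0.28. All 3 scaffold genes fell.

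Cars, the cysteine enzyme, fell most. It was at 76.1, 76.5, 76.6 and 75.4 CPM in control, 126.7, 117, 123 and 123 at 16 h and 22.3, 23.1, 22.4 and 22.9 with the inhibitor, 5.40-fold lower than at 16 h (log2 change -2.43 ± 0.04 SE, adjusted p = 1.55e-17). Tars was at 130.4, 138, 128.3 and 130.9 CPM with the inhibitor, 3.87-fold lower (log2 change -1.95 ± 0.04 SE, adjusted p = 1.75e-16). For both genes the inhibitor libraries lay below all control libraries as well. Gars fell to 376, 425, 378 and 381 CPM (log2 change -1.59 ± 0.06 SE, adjusted p = 8.29e-13) and Eprs to 243, 279.6, 249 and 254 (log2 change -1.37 ± 0.06 SE, adjusted p = 3.69e-12), also under their control ranges.

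The smallest decrease was that of Kars, to 599, 653, 605 and 603 CPM (log2 change -0.21 ± 0.04 SE, adjusted p = 1.16e-04), which left its libraries above every control library. Qars went the other way, to 151, 167, 152 and 141 CPM (log2 change 0.44 ± 0.05 SE, adjusted p = 1.03e-06), above its 16 h libraries. Mars, already low at 16 h, fell further, to 51.6, 54.6, 53.7 and 46.1 CPM (log2 change -0.71 ± 0.05 SE, adjusted p = 2.77e-09).

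In the mitochondrial set, Nars2, Rars2 and Wars2, which had risen at 16 h, fell with the inhibitor. Nars2 fell to 6.95, 7.36, 6.76 and 7.72 CPM, 3.70-fold lower (log2 change -1.89 ± 0.11 SE, adjusted p = 5.28e-11), and Rars2 to 29.6, 32.1, 29.9 and 31.6 (log2 change -1.59 ± 0.08 SE, adjusted p = 6.03e-12). Both were then below every one of their control libraries. Wars2 (tryptophan) fell too, from 34.3, 29.3, 33.3 and 31.7 at 16 h to 11.7, 12.6, 12.7 and 13.53 CPM (log2 change -1.35 ± 0.08 SE, adjusted p = 7.30e-11). Pars2 rose from 13.3, 13.53, 14.3 and 14.6 to 21.5, 20.4, 21.3 and 19.9 CPM (log2 change 0.58 ± 0.06 SE, adjusted p = 2.87e-07), without overlap, which set it against Eprs, the cytosolic proline enzyme. Aars2 was at 8.45, 6.04, 8.91 and 7.92 CPM with the inhibitor and was not called (log2 change 0.49, adjusted p = 0.093).

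Polysome association was compared next. In control cells the ratio of polysome to cytosolic RNA, here called translational efficiency, was above that of the average gene for 17 of 20 cytosolic and 13 of 16 mitochondrial synthetase genes, where 43% of 12561 genes were called higher and 39.6% lower. The median log2 ratios were 0.96 and 0.92, against 0.04 over all genes. Eprs, Lars (leucine) and Iars (isoleucine) were the 3 cytosolic genes below, with log2 ratios of -1.16, -0.48 and -0.24. Per sample, Eprs was at -1.39, -1.09, -0.97 and -1.20, Lars at -0.63, -0.46, -0.25 and -0.60 and Iars at -0.32, -0.24, -0.11 and -0.29, while Iars2, the mitochondrial isoleucine enzyme, was at 0.64, 0.82, 0.95 and 0.77. At the other end Sars was at 2.07, 1.87, 1.83 and 1.95 and Hars at 1.76, 1.76, 1.83 and 1.72, and Fars2 (phenylalanine) and Cars2 (cysteine) led the mitochondrial set at 1.56, 1.5003, 1.65 and 1.56 and 1.58, 1.16, 1.22 and 1.37. Lars2 and Wars2 were lowest there and not called, at -0.30, -0.06, -0.33 and -0.34 and -0.10, 0.11, 0.37 and -0.03. The control samples of each of the 3 low cytosolic genes were all below 0 and those of Sars, Hars, Fars2 and Cars2 all above it.

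Polysome RNA itself changed more than cytosolic RNA for the cytosolic set. At 1 h, 17 of 20 cytosolic genes rose in polysome RNA and 2 fell (Hars and Kars), where 41.1% of 12065 genes were called higher and 38.5% lower, and the median log2 change was 0.84 against 0.03. Of the mitochondrial genes 5 rose and 7 fell (median -0.14), and all 3 scaffold genes fell. At 16 h, 18 cytosolic genes rose and 1 (Mars) fell, with a median of 1.46, where 42.3% of genes were called higher and 42.9% lower. In the mitochondrial set 8 rose and 5 fell (median 0.08), and 3 fell without control replicate 4 or without 16 h replicate 2 or 3. Between 1 h and 16 h, 15 cytosolic and 10 mitochondrial genes rose and 4 and 3 fell, where 38.4% were called higher and 40% lower. With the inhibitor 19 of 20 cytosolic genes fell and none rose (median -1.77), and 11 mitochondrial genes fell and 3 rose (median -0.48), where 42.1% were called higher and 40.7% lower.

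Lars, Eprs and Aars had the largest polysome changes at 1 h, and Eprs and Lars at 16 h, while with the inhibitor Cars, given below, changed most. Lars polysome libraries held 61.0, 60.0, 69.98 and 60.3 CPM in control, 584, 576, 545 and 597 at 1 h, 521, 528, 544 and 509 at 16 h and 61.6, 67.9, 64.1 and 66.6 with the inhibitor, so that the 1 h libraries were 9.16-fold above control (log2 change 3.20 ± 0.05 SE, adjusted p = 1.16e-20). Eprs libraries held 105, 106.95, 126 and 105.7, then 793, 810.5, 736 and 811, then 996, 1026, 1059.8 and 978, then 155, 161, 149.8 and 159 CPM in the same order, 9.15-fold above control at 16 h (log2 change 3.19 ± 0.06 SE, adjusted p = 8.95e-21). Control replicate 3 was the highest of its group for both. Yars2 and Fars2 moved the other way: Yars2 polysome RNA fell from 62.9, 63.8, 67.1 and 63.6 to 22.7, 23.1, 23.9 and 27.1 CPM at 1 h (log2 change -1.41 ± 0.06 SE, adjusted p = 3.04e-15) and Fars2 from 40.3, 41.0, 40.9 and 42.2 to 18.2, 15.9, 17.4 and 16.3 (log2 change -1.28 ± 0.05 SE, adjusted p = 8.25e-15). These 2 were the lowest changes of the mitochondrial set at 1 h.

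Cysteine, tyrosine and phenylalanine had polysome changes in opposite directions in the 2 compartments at 16 h and with the inhibitor. Cars polysome libraries held 108, 109.4, 118.7 and 112.7 CPM in control, 228, 227, 225 and 237 at 1 h, 267, 264, 264 and 267 at 16 h and 27.4, 28.6, 26.9 and 28.7 with the inhibitor, and Cars2 libraries 32.6, 36.3, 30.6 and 37.6, then 18.6, 19.8, 21.4 and 17.6, then 33.9, 29.8, 24.5 and 31.8, then 41.5, 38.0, 36.4 and 37.7. Cars was highest and Cars2 lowest under stress without the inhibitor, with log2 changes at 16 h of 1.24 and -0.19. The Cars2 groups overlapped at 16 h and its call there was lost without the low-count filter, with the replicate number as block (-0.20) and without control replicate 2 or 4 or 16 h replicate 2 or 3. Yars went from 304, 285, 319 and 291 in control to 352, 343, 333 and 367, 470.2, 462, 490.3 and 474 and 136.8, 143.1, 130.6 and 144 CPM, and Yars2 stood at 37.3, 36.5, 37.1 and 34.3 at 16 h and 47.1, 46.6, 48.6 and 45.5 with the inhibitor. Their log2 changes with the inhibitor were -1.77 and 0.37.

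The cytosolic phenylalanine enzyme has 2 subunits and the mitochondrial one is a single chain. Farsa polysome libraries held 261, 257, 236 and 281 CPM in control, 278, 276, 280.2 and 266 at 1 h, 422, 384, 368 and 442 at 16 h and 269, 265, 259 and 248 with the inhibitor. Farsb libraries held 95.2, 99.6, 103.9 and 93.3, then 124.7, 125.4, 118.1 and 137.1, then 300.4, 317, 326 and 298, then 126, 135, 126 and 125.4, and Fars2 libraries stood at 16.7, 16.2, 15.8 and 16.4 at 16 h and 28.0, 27.9, 27.3 and 29.3 with the inhibitor. Both subunits rose at 16 h (log2 changes 0.64 and 1.66) while Fars2 fell (-1.33), and with the inhibitor all 3 went the other way (-0.64, -1.28 and 0.79).

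Other pairs were called in opposite directions in 1 or 2 polysome comparisons. At 1 h Mars rose from 239, 231, 258 and 251 to 483, 494, 481 and 492 CPM and Mars2 fell from 22.4, 26.1, 24.0 and 24.4 to 18.7, 22.0, 16.7 and 19.46 (log2 changes 0.996 and -0.33), Rars rose from 222, 227, 258 and 224 to 682, 685, 623 and 716 and Rars2 fell from 56.2, 52.4, 63.2 and 50.8 to 45.0, 41.5, 42.3 and 48.3 (1.54 and -0.33). Wars rose from 90.1, 91.96, 83.8 and 92.9 to 118.5, 115.3, 118.5 and 105.6 and Wars2 fell from 15.5, 14.1, 18.0 and 13.9 to 11.7, 11.3, 12.9 and 12.2 (0.35 and -0.36). None of these groups overlapped. At 16 h the same held for alanine, with Aars at 544, 529.6, 577 and 605 in control and 3010.3, 2822, 2729 and 2983 at 16 h and Aars2 at 11.1, 12.3, 10.3 and 14.1 and 8.79, 8.14, 5.90 and 10.9 (2.36 and -0.51), and for serine, with Sars at 701, 714, 694 and 739 and 1309, 1323, 1209 and 1359 and Sars2 at 8.05, 7.10, 5.40 and 7.22 and 5.66, 4.42, 3.96 and 6.75 (0.87 and -0.42). The Aars2 and Sars2 groups overlapped, and both calls were lost when single replicates were left out. From 1 h to 16 h Iars rose from 556, 587, 545 and 586 to 682, 704, 689.9 and 655 CPM while Iars2 fell from 157, 165, 161 and 172 to 129.5, 132, 135 and 123 (0.26 and -0.33), and Mars fell to 197, 186, 192 and 191 while Mars2 rose to 24.5, 23.02, 23.2 and 21.1 (-1.35 and 0.26), with overlapping Mars2 groups.

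Translational efficiency divided the cytosolic set. At 1 h it rose for 10 of 20 cytosolic genes, fell for 8 and was not called for 2, where 33.4% of genes were called higher and 34.4% lower. The median log2 change was 0.21 against -0.01. In the mitochondrial set 3 rose, 7 fell and 6 were not called (median -0.27). All 3 scaffold genes fell.

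Lars and Eprs rose most. The log2 ratio of polysome to cytosolic RNA of Lars went from -0.63, -0.46, -0.25 and -0.60 in the 4 control samples to 1.94, 1.76, 1.77 and 1.87 at 1 h (log2 change 2.32 ± 0.09 SE, adjusted p = 1.93e-13). For Eprs it went from -1.39, -1.09, -0.97 and -1.20 to 0.95, 0.87, 0.80 and 0.89 (log2 change 2.04 ± 0.09 SE, adjusted p = 1.20e-12), a gene whose mRNA was under-represented on polysomes in control cells and over-represented after 1 h. Aars (1.497), Iars (1.29), Rars (0.94) and Tars (0.69) followed. None of these 6 genes had overlapping groups.

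Hars and Sars fell most in the cytosolic set. The ratio of Hars went from 1.76, 1.76, 1.83 and 1.72 to 0.81, 0.75, 0.65 and 0.83 (log2 change -1.005 ± 0.06 SE, adjusted p = 5.60e-11) and that of Sars from 2.07, 1.87, 1.83 and 1.95 to 1.41, 1.37, 1.36 and 1.47 (log2 change -0.53 ± 0.06 SE, adjusted p = 3.46e-07), both without overlap. Of the genes that serve both compartments, Kars went from 0.91, 1.05, 1.01 and 0.98 to 0.52, 0.43, 0.41 and 0.57 (log2 change -0.50 ± 0.06 SE, adjusted p = 3.54e-07) and Gars from 1.49, 1.77, 1.89 and 1.64 to 1.42, 1.24, 1.24 and 1.36 (log2 change -0.39 ± 0.09 SE, adjusted p = 8.79e-04). Qars rose, from 0.79, 0.89, 1.12 and 0.96 to 1.33, 1.16, 1.20 and 1.35 (log2 change 0.32 ± 0.08 SE, adjusted p = 0.00112).

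Fars2 and Cars2 were the lowest of the mitochondrial set. Fars2 went from 1.56, 1.5003, 1.65 and 1.56 to 0.50, 0.32, 0.43 and 0.30 (log2 change -1.18 ± 0.10 SE, adjusted p = 5.21e-09), and Cars2 from 1.58, 1.16, 1.22 and 1.37 to 0.02, 0.44, 0.30 and -0.06 (log2 change -1.15 ± 0.14 SE, adjusted p = 6.25e-07). Cars, the cytosolic cysteine enzyme, rose over the same hour, from 0.91, 0.96, 1.05 and 1.01 to 1.46, 1.48, 1.36 and 1.49 (log2 change 0.47 ± 0.06 SE, adjusted p = 7.00e-07). Its samples did not overlap those of control. Rars and Rars2 were also called in opposite directions, with Rars2 falling from 0.73, 1.05, 1.14 and 0.86 to 0.52, 0.18, 0.37 and 0.47 (log2 change -0.56 ± 0.11 SE, adjusted p = 1.51e-04). So were Eprs and Ears2, the glutamate pair, with Ears2 falling from 0.62, 0.23, 0.31 and 0.48 to 0.06, 0.17, -0.10 and 0.10 (log2 change -0.36 ± 0.11 SE, adjusted p = 0.00652). Pars2 and Iars2 were the highest mitochondrial genes. Pars2 rose from 0.11, 0.04, 0.27 and 0.33 to 0.90, 0.77, 0.89 and 0.93 (log2 change 0.68 ± 0.10 SE, adjusted p = 4.09e-06), and Iars2 from 0.64, 0.82, 0.95 and 0.77 to 1.06, 1.04, 1.02 and 1.05 (log2 change 0.25 ± 0.07 SE, adjusted p = 0.00584).

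Coding length moved with these changes over all genes: at 1 h the median log2 change in translational efficiency was 0.24 for genes under 500 coding nt, -0.41 for 500 to 1000 nt and 0.88 above 3000 nt, so the relation did not run one way. Median coding lengths were 2073 nt for the cytosolic set, 1612 for the mitochondrial set, 957 for the scaffold genes and 1242 for all genes with a coding length. With a per-library correction for coding length, the median of the cytosolic set at 1 h was -0.06 (7 higher, 8 lower) and that of the mitochondrial set -0.38 (1 higher, 9 lower), against -0.04 over all genes. Lars, Eprs and Aars kept log2 changes of 1.71, 1.22 and 1.03, Hars -0.93 and Fars2 -1.01. The calls of Cars and Qars ended (0.11 and 0.01), and Iars2 turned to -0.25 (adjusted p = 0.01). With the cytosolic level as a covariate, Sars and Gars turned positive and were not called (0.26 and 0.09), and Ears2 was at -0.02 and not called. That fit takes its slope on the cytosolic level only from variation within conditions. Its median for the cytosolic set at 1 h was 0.75, near the 0.84 of polysome RNA.

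**Figure D3:**
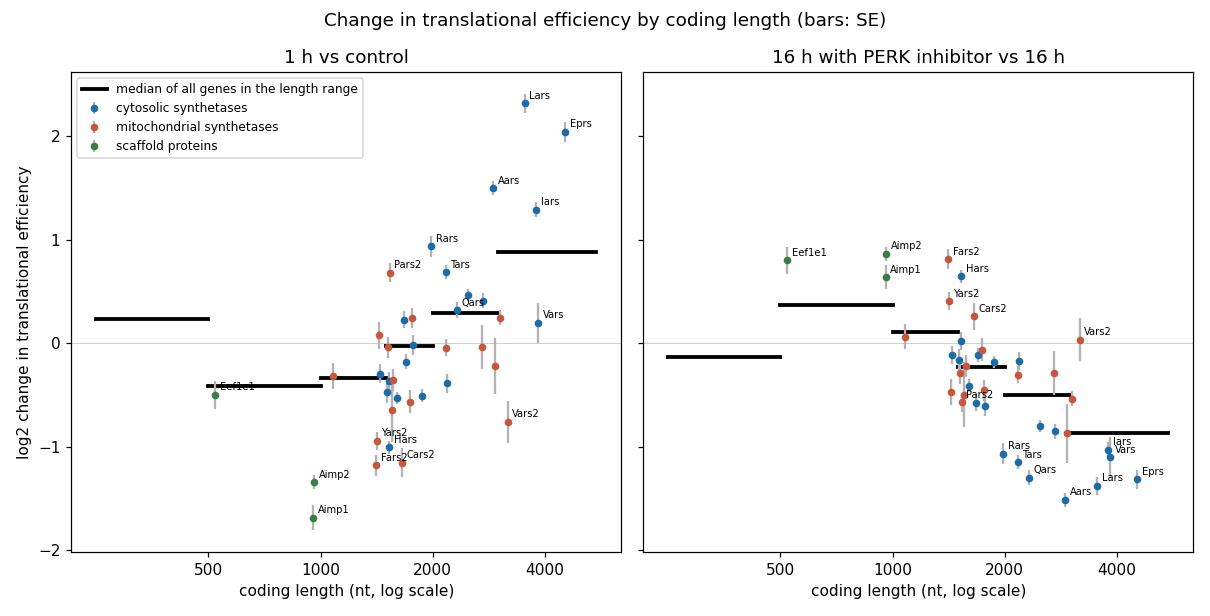
Log2 change in translational efficiency against coding length (nt, log scale) for the 39 genes at 1 h against control (left) and with the PERK inhibitor against 16 h (right); bars are standard errors, colours are the 3 gene groups, and black lines are the medians of all genes in a length range, the first and last range being open-ended. Lars, Eprs and Aars lie above the line of their length at 1 h and below it with the inhibitor, and Hars, Fars2, Aimp1 and Aimp2 lie below it and then above it.

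At 16 h the efficiency of 11 of 20 cytosolic genes was above control, that of 3 (Hars, Sars and Kars) below and that of 6 not called, where 31.1% of genes were called higher and 33% lower. The median was 0.40 against -0.04 over all genes, and -0.09 for the mitochondrial set, in which 4 rose and 7 fell. Eprs and Lars were again the highest. Eprs samples were at 0.79, 1.09, 1.19 and 0.90 (log2 change 2.15 ± 0.09 SE, adjusted p = 8.75e-13) and Lars samples at 1.29, 1.52, 1.65 and 1.37 (log2 change 1.94 ± 0.09 SE, adjusted p = 2.23e-12). Neither overlapped with control. Hars was at 0.83, 0.90, 0.92 and 0.79 (log2 change -0.91 ± 0.06 SE, adjusted p = 2.48e-10), Sars at 1.55, 1.504, 1.42 and 1.52 (log2 change -0.43 ± 0.06 SE, adjusted p = 4.71e-06) and Kars at 0.73, 0.87, 0.85 and 0.80 (log2 change -0.17 ± 0.06 SE, adjusted p = 0.0147). The Kars call was lost with DESeq2's size factors (-0.12).

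Fars2 (log2 change -1.46 ± 0.10 SE, adjusted p = 2.65e-10) and Cars2 (log2 change -0.99 ± 0.14 SE, adjusted p = 3.74e-06) were again the lowest mitochondrial genes, with 16 h samples at 0.30, 0.15, -0.02 and 0.01 and 0.63, 0.29, -0.02 and 0.47, all below control. Hars2 and Pars2 were the highest. Hars2 went from 0.37, 0.73, 0.73 and 0.57 in control to 0.78, 1.20, 1.25 and 1.05 (log2 change 0.47 ± 0.10 SE, adjusted p = 4.60e-04), against the fall of Hars, its neighbour on the opposite strand with which it shares overlapping annotation, and Pars2 to 0.72, 0.54, 0.69 and 0.59 (log2 change 0.45 ± 0.09 SE, adjusted p = 3.31e-04). The Lars2 ratio fell, from the control values above to -1.12, -1.11, -0.70 and -0.75 (log2 change -0.66 ± 0.21 SE, adjusted p = 0.0137), against the rise of Lars.

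Opposite calls at 16 h also covered cysteine, arginine, threonine and valine, with the cytosolic gene higher each time. Cars was at 1.43, 1.54, 1.53 and 1.46 (log2 change 0.51 ± 0.06 SE, adjusted p = 2.44e-07). Rars went from 0.39, 0.80, 0.87 and 0.59 to 1.47, 1.83, 1.85 and 1.59 (log2 change 1.02 ± 0.10 SE, adjusted p = 4.47e-08) and Rars2 from 0.73, 1.05, 1.14 and 0.86 to 0.34, 0.70, 0.78 and 0.44 (log2 change -0.38 ± 0.11 SE, adjusted p = 0.00394), the latter with overlapping groups. Tars went from 0.29, 0.43, 0.50 and 0.58 to 1.60, 1.73, 1.66 and 1.60 (log2 change 1.20 ± 0.07 SE, adjusted p = 2.56e-11) and Tars2 from 1.44, 1.16, 1.20 and 1.34 to 1.21, 0.97, 0.99 and 1.09 (log2 change -0.22 ± 0.08 SE, adjusted p = 0.0277). Tars2 overlapped with control and lost its call with DESeq2's size factors. Vars went from 1.12, 0.27, 0.32 and 0.85 to 1.87, 1.22, 0.96 and 1.60 (log2 change 0.77 ± 0.20 SE, adjusted p = 0.00285) and Vars2 from 1.73, 1.01, 0.87 and 1.45 to 1.06, 0.39, -0.05 and 0.67 (log2 change -0.75 ± 0.21 SE, adjusted p = 0.00495). Both valine genes had wide, overlapping groups, in which control replicates 1 and 4 and 16 h replicates 1 and 4 were the higher.

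With the length correction the 16 h median of the cytosolic set was 0.09 (8 higher, 4 lower) and that of the mitochondrial set -0.39 (3 higher, 8 lower), against -0.04 over all genes. The calls of Cars (0.10) and Vars (0.09) ended. With the cytosolic level as a covariate, 18 cytosolic genes were higher and none lower, with a median of 1.62, and 7 mitochondrial genes were higher and 3 lower, where 8454 of 12561 genes were called in either direction and the median over all genes was 0.06. These values lie near those of polysome RNA, where 18 cytosolic genes were higher and 1 lower (median 1.46) and 8 mitochondrial genes higher and 5 lower. In the covariate fit Hars, Sars, Kars, Rars2 and Tars2 turned positive (0.07, 0.94, 0.67, 1.03 and 0.46), while the calls of Cars2, Lars2 and Vars2 ended.

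The ratios of control and 16 h samples with the same replicate number deviated together, so groups that overlap here can differ in one direction within every number. With the number as a block in a fit of these 2 conditions alone, each call above was kept, Farsb (0.12) was also called higher, and Farsa (-0.09), Gars (-0.26), Wars (-0.20) and Yars (-0.09) lower. That made 12 cytosolic genes higher and 7 lower, where 9334 of 12561 genes were called and the median over all genes was -0.10.

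From 1 h to 16 h fewer synthetase genes were called in efficiency than in the other comparisons, as was so over all genes. Of 20 cytosolic genes 7 rose, 1 fell and 12 were not called, and in the mitochondrial set 2 rose and 2 fell, where 14.5% of genes were called higher and 13.6% lower. Without 1 h replicate 3 the cytosolic count was 4, and without 16 h replicate 2 the mitochondrial count of rises was 1, while the covariate fit called 14 and 8 genes higher. Dars (aspartate) went from 0.15, 0.04, 0.12 and 0.10 to 0.45, 0.88, 0.95 and 0.58 (log2 change 0.61 ± 0.10 SE, adjusted p = 3.16e-04), against control values of 0.32, 0.76, 0.71 and 0.49. Vars was next (log2 change 0.58 ± 0.20 SE, adjusted p = 0.0392), with overlapping groups. Its call was lost without any of the 1 h replicates and without 16 h replicate 1 or 4, the lowest value being 0.43. Lars fell (log2 change -0.38 ± 0.09 SE, adjusted p = 0.00415) and Aars, at 2.19, 2.12, 2.12 and 2.23 and 2.19, 2.05, 1.99 and 2.05, was not called.

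Hars2 rose over the same interval (log2 change 0.51 ± 0.10 SE, adjusted p = 0.0013), from 0.65, 0.54, 0.45 and 0.59 at 1 h. Sars2 had the highest value of the mitochondrial set, with samples at -0.10, 0.40, 0.47 and 0.55 and then 1.63, 0.59, 0.16 and 1.20, but a wide spread and no call (log2 change 0.58, adjusted p = 0.187). Lars2 was lowest, going from -0.05, -0.46, -0.34 and -0.31 to the 16 h values above (log2 change -0.63 ± 0.22 SE, adjusted p = 0.042). Fars2 came next (log2 change -0.28 ± 0.10 SE, adjusted p = 0.0446), with groups that overlapped. Its call was lost under DESeq2's size factors and without 7 of 8 replicates left out in turn, and that of Lars2 without the low-count filter, without the sample block and without 7 of 8 replicates, and with any one replicate left out between 0 and 1 mitochondrial genes were called lower. Fars2 was called against Farsa, the cytosolic alpha subunit, whose ratio rose from 0.84, 0.91, 0.75 and 0.84 to 1.39, 1.04, 0.96 and 1.30 (log2 change 0.33 ± 0.09 SE, adjusted p = 0.00901).

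The PERK inhibitor lowered the efficiency of 14 of 20 cytosolic genes against 16 h, raised that of 1 (Hars) and left 5 not called, where 26.4% of genes were called higher and 33.7% lower. The median was -0.70 against -0.09 over all genes. In the mitochondrial set 7 fell, 2 rose (Fars2 and Yars2) and 7 were not called (median -0.29). All 3 scaffold genes rose.

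Aars and Lars fell most. Aars had been at 0.74, 0.48, 0.67 and 0.77 in control, 2.19, 2.12, 2.12 and 2.23 at 1 h and 2.19, 2.05, 1.99 and 2.05 at 16 h, and was at 0.56, 0.53, 0.48 and 0.65 with the inhibitor (log2 change -1.51 ± 0.07 SE, adjusted p = 4.10e-12), overlapping its control values. Lars was at 0.05, -0.03, 0.15 and 0.14 (log2 change -1.38 ± 0.09 SE, adjusted p = 3.27e-10) and Eprs at -0.24, -0.42, -0.32 and -0.30 (log2 change -1.31 ± 0.09 SE, adjusted p = 7.62e-10), in both cases below the 16 h samples and above the control samples. Qars fell to 0.19, 0.09, 0.18 and 0.33 (log2 change -1.30 ± 0.08 SE, adjusted p = 8.10e-11), below its control range, while its cytosolic RNA had risen. Hars rose to 1.58, 1.53, 1.42 and 1.496 (log2 change 0.65 ± 0.06 SE, adjusted p = 3.25e-08), between its 16 h and control values. Farsa was at 1.20, 1.23, 1.12 and 1.22 and not called (log2 change 0.02, adjusted p = 0.836). Kars and Gars were at 0.67, 0.56, 0.65 and 0.67 and 1.38, 1.24, 1.34 and 1.40, with log2 changes of -0.18 (called) and -0.17 (not called).

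Fars2 rose to 0.89, 0.84, 0.79 and 1.18 (log2 change 0.81 ± 0.10 SE, adjusted p = 8.42e-07), above its 16 h and below its control samples, while Farsb, the cytosolic beta subunit, fell from 0.58, 0.87, 0.95 and 0.66 to 0.20, 0.12, 0.25 and 0.08 (log2 change -0.61 ± 0.10 SE, adjusted p = 2.41e-05). Yars2 rose from 0.09, 0.12, 0.16 and 0.0037 to 0.51, 0.47, 0.64 and 0.37 (log2 change 0.41 ± 0.09 SE, adjusted p = 5.12e-04). Pars2 fell to -0.04, 0.08, 0.04 and 0.17 (log2 change -0.57 ± 0.09 SE, adjusted p = 2.12e-05), without overlap with 16 h. Aars2, lowest of the mitochondrial set, went from 1.76, 0.61, 0.41 and 1.17 to 0.21, 0.47, -0.14 and -0.11 (log2 change -0.87 ± 0.28 SE, adjusted p = 0.0138), with groups that overlapped. Hars2 was called lower, from its 16 h values to 0.85, 0.74, 0.76 and 0.78 (log2 change -0.29 ± 0.10 SE, adjusted p = 0.0184), against the rise of Hars, and its call was lost without 16 h replicate 2 or 3 or inhibitor replicate 2.

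Over all genes the inhibitor's change in efficiency also went with coding length, with medians of -0.13 for genes under 500 nt, 0.37 for 500 to 1000 nt and -0.87 above 3000 nt. After the length correction the cytosolic median was -0.32 (3 higher, 12 lower) and the mitochondrial one -0.003 (4 higher, 2 lower), against 0.01 over all genes. Aars, Lars, Eprs and Qars kept -0.94, -0.72, -0.54 and -0.84, and the calls of Aars2 (-0.30), Hars2 (-0.17) and Kars (turned to 0.14) ended. With the cytosolic level as a covariate, Hars turned to -0.06 and the Pars2 call ended (-0.10).

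**Figure D4:**
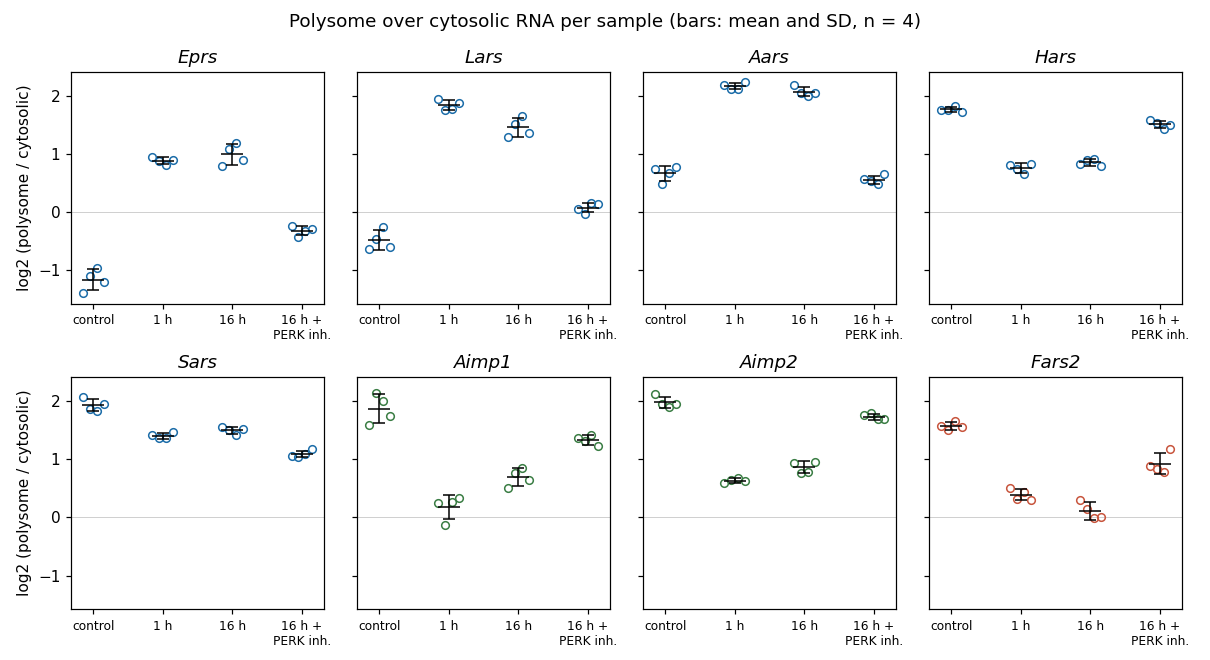
Log2 ratio of polysome to cytosolic RNA per sample for 5 cytosolic synthetases (Eprs, Lars, Aars, Hars, Sars), 2 scaffold proteins (Aimp1, Aimp2) and Fars2. Circles are the 4 samples of each condition in replicate order and bars give the mean and SD. Eprs, Lars and Aars rise at 1 h and 16 h and fall with the inhibitor, Hars, Aimp1, Aimp2 and Fars2 fall and then rise, and Sars is below control in the other 3 conditions.

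The genes of the 3 scaffold proteins rose in cytosolic RNA at 16 h and fell in translational efficiency. Aimp1 cytosolic RNA was at 69.5, 53.6, 59.6 and 63.3 CPM in control, 73.6, 80.02, 63.6 and 66.3 at 1 h, 131.3, 118.7, 117.6 and 125.3 at 16 h and 90.7, 102.5, 92.1 and 101.5 with the inhibitor. It rose at 16 h (log2 change 1.002 ± 0.08 SE, adjusted p = 4.97e-09) and fell with the inhibitor (log2 change -0.35 ± 0.08 SE, adjusted p = 8.11e-04), and its small rise at 1 h (log2 change 0.21 ± 0.08 SE, adjusted p = 0.0385) had overlapping groups and was lost with DESeq2's size factors and without 5 of 8 replicates left out in turn. Its polysome to cytosolic log2 ratio went from 1.58, 2.13, 1.998 and 1.74 to 0.24, -0.13, 0.27 and 0.33, 0.51, 0.76, 0.85 and 0.64 and 1.36, 1.30, 1.42 and 1.22 in the same order of conditions. The 1 h and 16 h samples were all below control (log2 change -1.68 ± 0.12 SE, adjusted p = 4.06e-10, at 1 h, and log2 change -1.17 ± 0.12 SE, adjusted p = 5.31e-08, at 16 h), and the ratio rose with the inhibitor (log2 change 0.64 ± 0.12 SE, adjusted p = 1.03e-04).

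Aimp2 cytosolic RNA was at 42.8, 52.7, 50.8 and 51.7 CPM in control, 53.1, 52.7, 55.9 and 56.1 at 1 h, 63.5, 72.1, 68.6 and 68.2 at 16 h and 58.7, 54.3, 59.3 and 55.6 with the inhibitor (log2 change 0.46 ± 0.06 SE, adjusted p = 2.92e-06, at 16 h). Its ratio fell from 2.11, 1.95, 1.89 and 1.95 to 0.59, 0.64, 0.68 and 0.62 at 1 h (log2 change -1.34 ± 0.07 SE, adjusted p = 4.37e-12), stood at 0.94, 0.76, 0.78 and 0.96 at 16 h (log2 change -1.11 ± 0.07 SE, adjusted p = 5.59e-11) and rose to 1.75, 1.79, 1.68 and 1.69 with the inhibitor (log2 change 0.87 ± 0.07 SE, adjusted p = 2.45e-09). No stressed sample without inhibitor reached the control range of either Aimp1 or Aimp2. With the length correction the 1 h changes were -1.27 and -0.93.

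Eef1e1, the short scaffold member, had cytosolic levels of 72.9, 57.6, 63.8 and 62.3 CPM in control, 56.1, 59.3, 57.9 and 63.1 at 1 h, 105.7, 92.8, 85.7 and 91.2 at 16 h and 50.9, 54.2, 49.9 and 57.3 with the inhibitor (log2 change 0.55 ± 0.07 SE, adjusted p = 3.52e-06, at 16 h, and log2 change -0.82 ± 0.07 SE, adjusted p = 2.86e-08, inhibitor against 16 h). It was the one scaffold gene under-represented on polysomes in control, at -0.81, -0.23, -0.17 and -0.62, with -0.86, -1.12, -0.96 and -0.87 at 1 h, -1.23, -0.88, -0.71 and -1.09 at 16 h and -0.20, -0.20, -0.03 and -0.29 with the inhibitor. Its fall at 1 h (log2 change -0.50 ± 0.13 SE, adjusted p = 0.00321) and at 16 h (log2 change -0.52 ± 0.13 SE, adjusted p = 0.00194) was not called after the length correction, at -0.33 and -0.23. With the cytosolic level as a covariate, Aimp1 and Eef1e1 turned positive at 16 h and were not called (0.25 and 0.31), and with the inhibitor the Aimp1 call ended (0.13) and Eef1e1 turned to -0.28.

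The 2 compartments were compared directly for each amino acid. For 17 pairs of a cytosolic and a mitochondrial gene, the log2 ratio of the pair was taken in every sample and the conditions were compared by an exact permutation test, two-sided, 4 samples against 4, whose smallest possible p is 0.0286. The family held 204 tests (17 pairs, 3 measures, 4 comparisons). A pair whose groups were fully separated reached an adjusted p of 0.0362, and 161 tests did. That value depends on how many of the 204 tests sat at the smallest p. For a single pair it shows only that the groups did not overlap, and pairs counted as shifted below are pairs with separated groups. The tests also repeat one another, since efficiency is polysome relative to cytosolic RNA and the 4 comparisons share conditions. Leaving out a sample gives 3 against 4 with a smallest p of 0.0571, so no test can then pass, and the sign was kept without any one sample in 192 of 204.

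In cytosolic RNA the ratio shifted towards the cytosolic gene in 14 of 17 pairs at 1 h and in none towards the mitochondrial gene, with a median difference of 0.62 in log2 ratio. At 16 h it shifted towards the cytosolic gene in 14 pairs and away from it in 1, with a median of 0.66. With the inhibitor it shifted towards the mitochondrial gene in 13 pairs and away in 1, with a median of -0.63. From 1 h to 16 h the counts were 5 and 7. In polysome RNA the ratio shifted towards the cytosolic gene in 15 of 17 pairs and away in 1 at 1 h, and likewise at 16 h. With the inhibitor it shifted towards the mitochondrial gene in 15 pairs and away in 2. These were not the same 15 pairs. Mars against Mars2 shifted with the inhibitor (-0.275) after overlapping groups at 16 h, and Nars against Nars2 shifted towards the cytosolic gene both times (0.31 and 0.13). Eprs and Fars2 each enter 2 pairs, so the 17 pairs are not independent, and the same counts over other gene pairs were not computed. Single genes were often called too, as the shares of all genes given above show.

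Pairs differed among themselves. Wars against Wars2 had the largest shift at 16 h, 1.82 (exact permutation p = 0.0286, adjusted p = 0.0362), with a smaller rise of Wars2 than of Wars. Mars against Mars2 was the pair that shifted the other way, by -0.36 at the same p. Nars against Nars2 and Cars against Cars2 differed by -0.05 and -0.06, with adjusted p of 0.845 and 0.773 in the exact permutation test. With the inhibitor Cars against Cars2 shifted most, by -2.56, where Cars fell and Cars2, at 28.0, 31.6, 33.3 and 29.3 CPM at 16 h and 35.7, 30.1, 35.8 and 31.9 with the inhibitor, was not called. Rars against Rars2 differed by 0.001 there (adjusted p = 0.976, exact permutation test).

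In translational efficiency the ratio shifted towards the cytosolic gene in 12 of 17 pairs at 1 h and in 13 at 16 h. With the inhibitor it shifted towards the mitochondrial gene in 12 pairs. Among these was Mars against Mars2 (-0.40), whose groups overlapped at 16 h against control. Aars against Aars2 and Nars against Nars2, shifted at 16 h, had overlapping groups with the inhibitor. Histidine was the exception in each of the 3 comparisons: Hars against Hars2 shifted by -0.97 at 1 h, -1.38 at 16 h and 0.94 with the inhibitor (exact permutation p = 0.0286 and adjusted p = 0.0362 each time). The largest positive shifts at 1 h were those of Eprs against Ears2, 2.40, and Lars against Lars2, 2.36. Pair ratios were not corrected for coding length, which was 4536 nt for Eprs, 1569 for Ears2, 3534 for Lars and 2706 for Lars2. In the fits of single genes that correction took the 1 h median of the cytosolic set from 0.21 to -0.06. How much of the pair shifts goes with length was not tested. Hars and Hars2 share some of their 50-base words and overlap on opposite strands, so a part of their reads cannot be told apart.

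**Figure D5:**
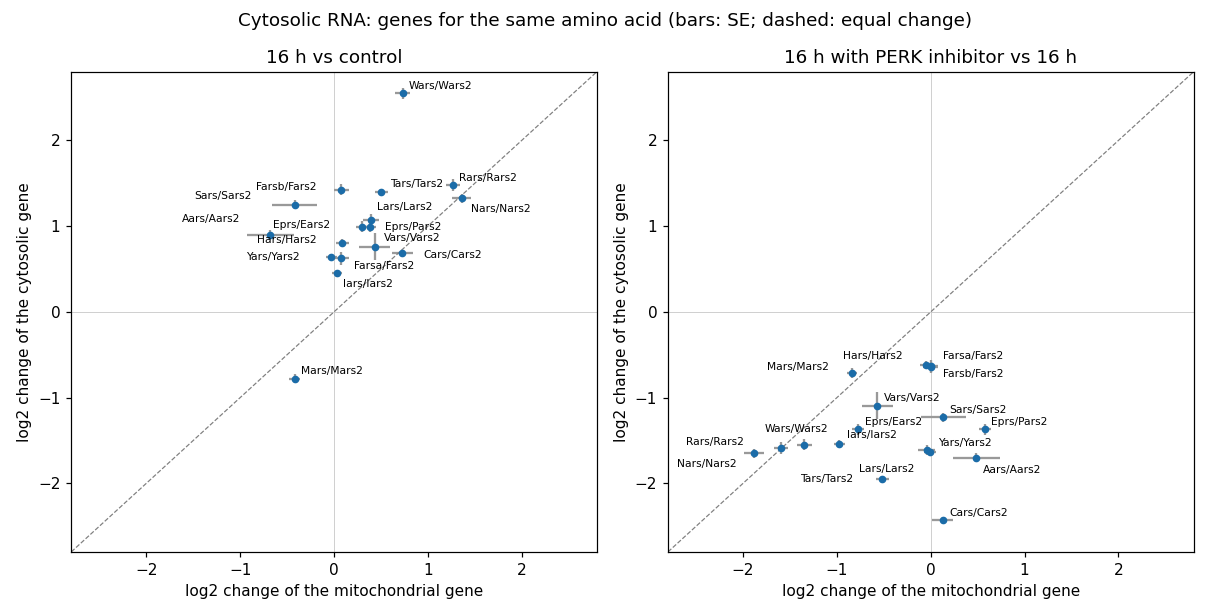
Log2 change in cytosolic RNA of the cytosolic gene (vertical) against that of the mitochondrial gene for the same amino acid (horizontal), 17 pairs, at 16 h against control (left) and with the PERK inhibitor against 16 h (right). Bars are standard errors and the dashed line marks equal change. At 16 h most pairs lie above the line, Nars/Nars2 and Cars/Cars2 close to it and Mars/Mars2 below, and with the inhibitor most lie below it.

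Other genes of tRNA charging were counted from 3 lists. Partners of charging (11 genes, among them the amidation subunits Gatb, Gatc and Qrsl1, and editing factors) had 3 genes higher and 3 lower in cytosolic RNA at 1 h, 8 higher and 1 lower at 16 h (median 0.45), and 0 higher and 5 lower with the inhibitor (median -0.17), beside the shares of all genes given above. At 16 h Gatc (1.22) and Sepsecs, which makes selenocysteine-tRNA (0.87), rose most, and Gatb, another subunit of the same amidation enzyme as Gatc, fell (-0.48). With the inhibitor Sepsecs (-1.47) and Gatc (-0.98) fell most.

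Genes of tRNA maturation and export (22 genes, each tested in cytosolic RNA) had 5 higher and 3 lower at 1 h, 15 higher and 0 lower at 16 h (median 0.44) and 5 higher and 12 lower with the inhibitor (median -0.50). Over all genes 28.1% were higher and 28.1% lower at 1 h, 37.9% and 39.4% at 16 h, and 42.2% and 32.5% with the inhibitor, so that the count of genes raised at 1 h was below the share of all genes. The RNase P subunit Rpp40 (1.44) rose at 16 h, and with the inhibitor Rpp38 (-1.61) and Rpp40 (-1.45) fell most. Rpp25 was at 0.0703, 0.0330, 0.163 and 0.0617 CPM in control and 0.424, 0.437, 0.569 and 0.401 at 16 h, so that it passed the filter on low counts only through the groups where it was higher, and its change is not ranked. It is still among the 22 genes counted, so its rise at 16 h is no evidence about the list. Mitochondrial translation factors (10 genes) had 5 higher and 2 lower at 1 h, 7 higher and 1 lower at 16 h (median 0.48) and 0 higher and 7 lower with the inhibitor (median -0.48). Mtif3, an initiation factor (0.87), and Tsfm, an elongation factor (0.77), rose most at 16 h, and Tufm, the elongation factor that delivers charged tRNA to mitochondrial ribosomes, fell (-0.54).

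In translational efficiency the charging partners had 1 gene higher and 7 lower at 1 h and 6 higher and 0 lower with the inhibitor, where 33.4% of all genes were higher and 34.4% lower at 1 h and 26.4% and 33.7% with the inhibitor. Aarsd1, an editing factor, was their lowest at 1 h (-1.45) and Gatc the highest (0.53). The maturation genes had 3 higher and 11 lower at 1 h and 11 higher and 6 lower with the inhibitor. Pop1, the large protein subunit of RNase P, was highest at 1 h (1.95) and lowest with the inhibitor (-1.73), and Hsd17b10, a subunit of mitochondrial RNase P, was lowest at 1 h (-1.90). The mitochondrial translation factors had 2 higher and 4 lower at 1 h and 4 higher and 2 lower with the inhibitor. Tsfm was lowest at 1 h (-1.29) and highest with the inhibitor (0.75).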

How the data were processed

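Counts of reads per gene were deposited by the authors for cytosolic and polysome RNA of 16 samples (32 libraries, 19317276 to 41776027 counts, TruSeq), unnormalized whole numbers. The submitters' processing notes name HISAT, mm10 and DESeq2 1.9.23. How reads were assigned to genes (tool, strand, annotation) is not given in the sources used here. From these counts, edgeR 4.0.16 (TMM, genes with at least 10 counts in enough libraries and 15 in all, robust quasi-likelihood test, all 4 conditions in one fit, 12 residual degrees of freedom) gave changes in cytosolic RNA and polysome RNA, and an interaction with the sample as block gave translational efficiency. P-values were adjusted by Benjamini-Hochberg over all genes tested, and genes at an adjusted p under 0.05 were called. Levels are TMM-scaled CPM, except those of the cell type markers, which are relative to total counts. Alternatives were DESeq2 1.42.0 (size factors, Wald test), no filter, the replicate number as block or no sample block, a correction for coding length, the cytosolic level as covariate (limma 3.58.1) and leaving out each replicate. The fits were tested on simulated data. The labels only number the replicates. In efficiency, deviations of same-numbered control and 16 h samples correlated at 0.50 to 0.80 in all 4 pairs, so a fit with the number as block was added for these after seeing the data. In RNA levels, and between the other conditions compared, at least 1 pair was at or below 0.1.

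Per-sample values are printed for the 2 highest and 2 lowest cytosolic and mitochondrial genes of each comparison in cytosolic RNA and efficiency, for scaffold proteins, Eprs, Gars, Kars and Qars, for pairs called in opposite directions and for some genes beside them, named after their values were seen. Of the other lists, the called genes with the highest and lowest change are named. A gene of the charging list and a promoter match are not reported here. The members and lists were chosen with earlier results of these data known.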

Additional observations from a re-analysis of the deposited data

Results flagged for a closer look

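In 22 of 312 groups of 4 libraries one library stood far from the other 3, by a gap to the nearest of them above Dixon's 95% critical value, where chance flags about 1 in 20 groups. In polysome RNA, control replicate 3 stood apart for Eprs (126 CPM, the others 105 to 106.95), Lars (69.98 CPM, the others 60.0 to 61.0), Nars (725 CPM, the others 612 to 624) and Rars (258 CPM, the others 222 to 227). In cytosolic RNA, inhibitor replicate 2 stood apart for Gars (425 CPM, the others 376 to 381), Kars (653 CPM, the others 599 to 605), Lars (89.8 CPM, the others 77.1 to 79.2) and Hars2 (32.03 CPM, the others 30.5 to 30.7). In polysome RNA, inhibitor replicate 2 stood apart for Farsb (135 CPM, the others 125.4 to 126), Rars2 (35.1 CPM, the others 32.3 to 32.6) and Tars2 (66.0 CPM, the others 69.3 to 69.9). In cytosolic RNA, 1 h replicate 4 stood apart for Aars (894 CPM, the others 973 to 985) and Hars (102 CPM, the others 108 to 109.6). In cytosolic RNA, control replicate 1 stood apart for Mars (138.5 CPM, the others 147 to 148.2) and Lars2 (429 CPM, the others 342 to 348). In polysome RNA, 16 h replicate 2 stood apart for Qars (226 CPM, the others 248 to 252) and Pars2 (15.2 CPM, the others 17.2 to 17.3). In cytosolic RNA, 16 h replicate 1 stood apart for Sars (568 CPM, the others 604 to 608) and Iars2 (92.7 CPM, the others 82.2 to 83.9). Single values that stood apart in cytosolic RNA were those of Kars in 1 h replicate 1 (479 CPM, the others 499.9 to 503), Yars in control replicate 3 (131.5 CPM, the others 136.4 to 137.1) and Iars2 in inhibitor replicate 1 (42.0 CPM, the others 43.8 to 44.1).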

How the results depend on the processing

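Of 468 tests of a member, 370 were called (79.1%, against 69.0% of all gene tests in the same 12 comparisons). Of the 468, 26.1% changed their call or sign under at least 1 setting, and 51 (10.9%) when one replicate was left out. In cytosolic and polysome RNA no direction turned in a called test. Translational efficiency depended most on the setting. With the correction for coding length, these log2 changes turned their sign: at 1 h the median of cytosolic synthetases -0.057, Mars -0.008, Vars -0.48, Iars2 -0.25 and Wars2 0.074. At 16 h Mars -0.087 and Iars2 -0.35. With the inhibitor Gars 0.25, Kars 0.14, Iars2 0.057 and Tars2 0.11. With the cytosolic level as covariate, these log2 changes turned their sign: at 1 h Dars 0.26, Farsa 0.059, Farsb 0.39, Gars 0.093, Sars 0.26, Wars 0.47, Yars 0.27, Aars2 0.70, Mars2 -0.24, Tars2 0.17 and Vars2 0.20. At 16 h the median of mitochondrial synthetases 0.18, Farsa 0.75, Gars 1.15, Hars 0.073, Kars 0.67, Mars -0.37, Sars 0.94, Wars 3.31, Yars 0.96, Rars2 1.03, Tars2 0.46, Aimp1 0.25 and Eef1e1 0.31. At 16 h against 1 h Lars 0.053, Qars -0.090, Vars -0.17, Aars2 -1.12, Fars2 0.11, Nars2 1.40, Tars2 0.29, Vars2 -0.35 and Eef1e1 0.93. With the inhibitor Farsa -0.70, Hars -0.058, Vars2 -0.61, Wars2 -1.35 and Eef1e1 -0.28. In efficiency, the covariate moved the genes called higher from 11 to 18 (cytosolic, 16 h), from 7 to 14 (cytosolic, 16 h against 1 h) and from 2 to 8 (mitochondrial, 16 h against 1 h), and the mitochondrial genes called lower from 7 to 3 at 16 h and from 7 to 11 with the inhibitor. The length correction moved the last count from 7 to 2. Leaving out one replicate gave 4 to 9 cytosolic and 1 to 2 mitochondrial genes higher at 16 h against 1 h. The covariate fit takes its slope from variation within conditions. In polysome RNA the counts that it moved were 18, 15, 10, 5 and 11, in the order given. The causes of the shifts between settings were not tested. In RNA levels the replicate numbers did not pair the samples alike in all conditions. Deviations of same-numbered libraries in 2 conditions correlated at -0.738 to 0.866 in cytosolic RNA (median 0.0148, 24 pairs) and at -0.68 to 0.77 in polysome RNA (median -0.0371). In cytosolic RNA, control and 16 h were at 0.87, 0.68, 0.40 and 0.06, 1 h and inhibitor at 0.56, 0.64, 0.37 and 0.33, and control and 1 h at -0.69, -0.68, 0.24 and -0.10. In polysome RNA, control and 16 h were at 0.05, 0.10, 0.77 and 0.63 and control and 1 h at -0.09, -0.16, -0.68 and -0.63. With the replicate number as block, 20 cytosolic genes were called higher in cytosolic RNA at 1 h and 18 at 16 h, as without it. In efficiency, same-numbered control and 16 h samples were at 0.79, 0.50, 0.80 and 0.50, but only 2 of the 4 control samples correlated best with their own number. Control and 1 h were at -0.53, -0.45, -0.45 and -0.34. For control and 16 h the block, chosen after seeing the data, moved the cytosolic genes called lower from 3 to 7 and their median from 0.40 to 0.34. Besides the 5 new calls named above it changed no call of a member. Without the sample block, 10 cytosolic genes rose in efficiency at 1 h. The cytosolic and polysome libraries of a sample correlated at a median of 0.125 (-0.6 to 0.399, n = 16). Sars2 and Aars2 had the fewest counts, which limits their precision, and the change of Sars2 at 16 h (log2 change -0.42 in cytosolic RNA, adjusted p = 0.116) was called without control replicate 1 (-0.61, adjusted p = 0.00908) and not otherwise. Genes that overlap a neighbour (Mars, Hars and Hars2, Aars and Exosc6, Wars, Yars, Farsb, Ears2, Fars2, Iars2, Aimp1 and Aimp2) may hold its reads.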
